A study of Mus musculus with 9 samples.

Results

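The subject is 10 genes listed for iron handling. They are the hepcidin gene Hamp, its paralogue Hamp2, and the transport, storage and sensing genes Slc40a1, Tfrc, Trf, Fth1, Slc11a2, Heph, Hfe and Ireb2. A gene was followed through the probe set that lists its symbol and no other, and the brightest such probe set over the 9 arrays was taken. By this rule 9 of the 10 genes were measured, among 22180 genes in all. The only probe set listing Trf, the plasma iron carrier transferrin, also lists Srprb, so Trf has no value of its own. Hamp was selected on its measured difference between the HG-PIN groups, and the other genes were listed for their part in iron handling. All 9 measured genes passed the filter on low signal and were among the 16635 genes tested.

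Epithelial lesions were laser-captured from fixed prostate sections of male mice aged 12 months and of mixed strain, and their amplified RNA was hybridised to 1 array per capture. The 3 groups of 3 arrays were poorly differentiated solid tumours of PbCre;T-3Mb-Erg/+ mice, high-grade prostatic intraepithelial neoplasia (HG-PIN, dysplastic epithelium within the gland) of the same 3 mice, and HG-PIN of 3 control mice without the T-3Mb-Erg allele. Mice of both genotypes carried PbCre, in which a probasin promoter directs the Cre recombinase to prostate epithelium; what else both genotypes carried is not described here. The T-3Mb-Erg allele was present on 1 chromosome. The study title concerns the genes between Tmprss2 and Erg, and none of the 10 iron genes lies there: on assembly GRCm38.p6, Erg starts at 95359169 and Tmprss2 ends at 97659541 on chromosome 16, where Tfrc lies at 32608896 to 32632794. The arrays carry no depth, and their number limits the precision.

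Hepcidin, the peptide made from Hamp, is the hormone that lowers iron export from cells: it binds ferroportin, the product of Slc40a1, and brings about its degradation. It is known best from the liver, where BMP-SMAD signalling in response to iron and IL-6-STAT3 signalling in inflammation raise Hamp transcription, and it is also made in other tissues, prostate epithelium among them. Inside cells, the product of Ireb2 controls the stability and translation of messenger RNAs such as those of Tfrc and Fth1, so a transcript level covers only part of how these genes are regulated.

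Hamp lies on chromosome 7 at 30942368 to 30944029, and its mouse paralogue Hamp2 at 30922372 to 30924181, both on the minus strand of GRCm38.p6. The 150 bases before each start are shown because Hamp and Hamp2 are close copies whose values differ below; they run 5′ to 3′ and come from RefSeq (GRCm38.p6, chr7:30944030-30944179 for Hamp and chr7:30924182-30924331 for Hamp2, minus strand). Capitals mark GGCGCC, the core of a BMP response element, and TTCNNNGAA, the pattern of a STAT site.
Hamp: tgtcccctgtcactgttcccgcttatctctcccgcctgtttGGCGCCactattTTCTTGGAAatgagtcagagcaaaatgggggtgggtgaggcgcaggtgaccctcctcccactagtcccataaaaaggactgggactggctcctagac
Hamp2: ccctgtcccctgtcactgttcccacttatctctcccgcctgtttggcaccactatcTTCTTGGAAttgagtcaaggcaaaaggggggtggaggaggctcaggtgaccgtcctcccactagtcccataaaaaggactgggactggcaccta

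Over the 250 bases before the start, 89.7% of aligned positions were identical between the paralogues. GGCGCC was found at positions -109 to -104 of Hamp, counted from the base before the start, and not in the window of Hamp2. TTCTTGGAA was found at -97 to -89 of Hamp and at -94 to -86 of Hamp2. Both strands of 32851 windows of 300 bases (250 before and 50 after a start) were searched: GGCGCC occurred in 11.9% of them, TTCNNNGAA in 8.3% and TTCTTGGAA in 0.417%. Of the 6 iron genes with a window, Hamp and Tfrc held GGCGCC, and Hamp and Hamp2 held TTCTTGGAA; the patterns share no base with each other in either sequence. A match describes letters in these windows and says nothing of binding.

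Hamp was the iron gene that differed most between the HG-PIN lesions of the 2 genotypes, and it was put at the head of the list for that difference. Its values in this contrast, and the group means they enter, are therefore a description without a test. On the log2 intensity scale Hamp stood at 3.29, 2.97 and 2.44 in T-3Mb-Erg HG-PIN, against 7.20, 5.88 and 5.70 in HG-PIN of control mice. The groups did not overlap, and 2.41 log2 units separated the highest T-3Mb-Erg array from the lowest control array. The means were 2.90 ± 0.43 and 6.26 ± 0.82 (SD, n = 3 each). Their difference of -3.36 rests on T-3Mb-Erg HG-PIN values near background, so its size is given below as a bound.

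A gauge of background was taken from 1390 olfactory and vomeronasal receptor genes, whose 95th percentile of mean log2 intensity was 4.81. No T-3Mb-Erg HG-PIN array exceeded this receptor level for Hamp, and all 3 control HG-PIN arrays did. With each array set no lower than that level, Hamp was at least 2.74-fold lower in T-3Mb-Erg HG-PIN than in control HG-PIN. In captured tissue, fewer cells of a type and less RNA per cell cannot be told apart.

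In the solid tumours of the same T-3Mb-Erg mice, Hamp stood at 4.37, 7.49 and 4.86, against 3.29, 2.97 and 2.44 in their HG-PIN. It was higher in the tumour in 3 of 3 mice, by 1.08, 4.51 and 2.42 log2 units, and the groups did not overlap. Tumour replicate 2 held the highest Hamp value of all 9 arrays and lay 2.63 above the next tumour. It also had the narrowest range of the 9 arrays, with a 95th percentile of log2 intensity of 6.15. The tumour mean was 5.57 ± 1.68, a difference of 2.67 from the T-3Mb-Erg HG-PIN mean, and 1.70 without tumour replicate 2. That group of HG-PIN arrays chose the gene, so no test is given.

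With each array set no lower than the receptor level, Hamp was 1.88-fold higher in tumours than in T-3Mb-Erg HG-PIN. Without tumour replicate 2 the ratio was 1.02. Tumour replicate 1 lay below the level, and tumour replicate 3 just above it. Because tumour replicate 1 was itself raised to the level, neither ratio is a lower bound. Against control HG-PIN the tumours overlapped: their mean differed by -0.69, and by -1.65 without tumour replicate 2.

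**Figure D1:**
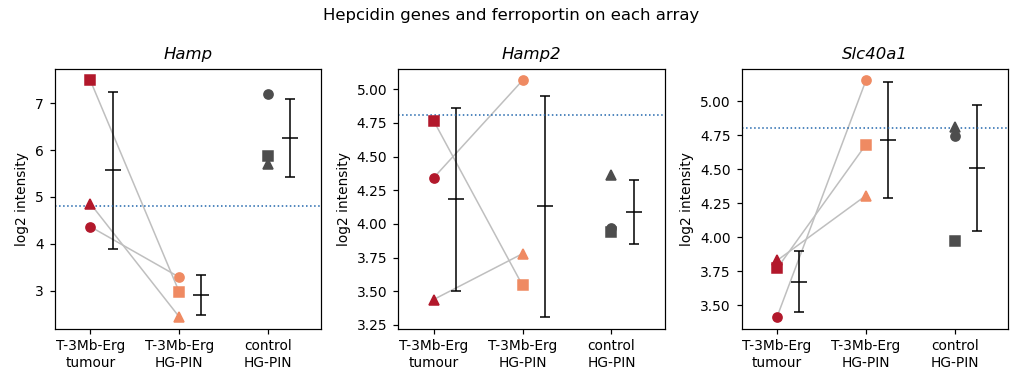
Log2 intensity of Hamp, Hamp2 and Slc40a1 on each array of T-3Mb-Erg tumours, T-3Mb-Erg HG-PIN and control HG-PIN. Circles, squares and triangles are replicates 1, 2 and 3, grey lines join arrays of the same mouse, bars give mean ± SD (n = 3), and the dotted line is the receptor level of 4.81. The 3 T-3Mb-Erg HG-PIN arrays of Hamp lie between 2.44 and 3.29, below all other arrays, and the 3 tumour arrays of Slc40a1 lie between 3.41 and 3.83, below all other arrays.

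Hamp2 is the second hepcidin gene of the mouse. It stood at 4.34, 4.77 and 3.44 in tumours, 5.07, 3.54 and 3.78 in T-3Mb-Erg HG-PIN, with 3.97, 3.94 and 4.36 in control HG-PIN. All 3 groups overlapped, and 1 of the 9 arrays exceeded the receptor level. Between T-3Mb-Erg HG-PIN and control HG-PIN the means differed by 0.04. The tumour change from T-3Mb-Erg HG-PIN was 0.05 with a 95% interval from -0.84 to 0.95 (limma adjusted p = 0.999), and its sign differed between mice, at -0.72, 1.22 and -0.34. Whether the Hamp and Hamp2 probe sets also read the other paralogue was not tested.

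Markers of other cells that could bring Hamp transcripts were read beside it. Of 10 hepatocyte markers, which include Alb, Ttr and Apoa1, the mean exceeded the receptor level for 0 in tumours, 0 in T-3Mb-Erg HG-PIN, but for 1 in control HG-PIN, where Apoa2 averaged 4.85 ± 0.73. Their summed intensity ranged from 139.98 to 163 in tumours, from 143 to 151 in T-3Mb-Erg HG-PIN and from 153 to 214 in control HG-PIN. The 3 control HG-PIN arrays all lay above the 3 T-3Mb-Erg HG-PIN arrays in this sum. The highest sum was on control replicate 1, which was also the control array with the highest Hamp value. Of 8 hepatocyte markers tested, 5 had negative and 3 positive differences between the HG-PIN groups. Groups did not overlap for 25% of the 8, Alb (-0.67) and Serpina1a (-0.38), beside 10.1% of all genes, given without a test. The summed intensity of 10 macrophage markers ranged from 209 to 457 in tumours, from 241 to 313 in T-3Mb-Erg HG-PIN and from 209.96 to 233 in control HG-PIN. The 3 control HG-PIN arrays, where Hamp was high, all lay below the 3 T-3Mb-Erg HG-PIN arrays in this sum, and tumour replicate 2, with the highest Hamp, stood at 227. Between the HG-PIN groups, 8 of 9 measured prostate secretory genes had negative differences, with a median of -0.97 and 0 without overlap. Their summed intensity was 1379, 574 and 1230.1 in T-3Mb-Erg HG-PIN replicates 1 to 3, against 4799.6, 309 and 5352 in control HG-PIN. In tumours, where Hamp was higher than in T-3Mb-Erg HG-PIN, the sum was lower than in either HG-PIN group, at 130.8, 158 and 125.5. Control replicate 2 stood apart in this sum, below all 3 T-3Mb-Erg HG-PIN arrays, while its Hamp value of 5.88 lay above theirs; without it the Hamp difference was -3.55. The part of these cells in the Hamp values was not tested.

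By Pearson's r over the 9 arrays, the genes with the pattern most like Hamp among 14632 compared were Poli (r = 0.94), Myt1 (0.93), Ppp1r12b (0.93), Tti2 (0.93) and Twf2 (0.93). Tti2, for example, averaged 4.73 in tumours, 3.81 in T-3Mb-Erg HG-PIN, with 4.76 in control HG-PIN. These are the highest of many correlations over few arrays that share their group structure, and they are given as a description. Poli, Myt1 and Ppp1r12b lay below the receptor level on all 9 arrays and Tti2 on 7 of them, so most of these likenesses are between signals near background. The other iron genes had r between -0.45 (Fth1) and 0.21 (Hamp2) with Hamp.

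Slc40a1, the gene of the iron exporter ferroportin on which hepcidin acts, had the smallest p of the 8 tested iron genes in both tumour comparisons. It stood at 3.41, 3.77 and 3.83 in tumours, against 5.16, 4.68 and 4.31 in the HG-PIN of these mice. The groups did not overlap, and the tumour was lower in 3 of 3 mice, by 1.74, 0.91 and 0.48 log2 units. The change was -1.04 (SE 0.29, 95% interval from -1.67 to -0.42), with an adjusted p of 0.251 in limma over all genes, so it did not pass the threshold of 0.05.

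Against control HG-PIN, at 4.74, 3.97 and 4.81, the tumours were again the lower group without overlap. This change was -0.84 (SE 0.29, limma adjusted p = 0.324) and did not pass; both comparisons use the same tumour arrays. With array weights, which let arrays with larger residuals count less, Slc40a1 passed in both (limma adjusted p = 0.0274 and 0.0110), while 405 and 938 genes in all passed under that setting. Only 2 of the 9 Slc40a1 arrays exceeded the receptor level, so background limits the size of the difference that can be read. Between T-3Mb-Erg HG-PIN and control HG-PIN the means differed by 0.21 and the arrays overlapped.

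Markers of luminal epithelium were lower in tumours together with Slc40a1. Of 9 measured, the group mean exceeded the receptor level for 2 in tumours, 8 in T-3Mb-Erg HG-PIN; control HG-PIN likewise had 8. Macrophages are known for high ferroportin. The macrophage sums given above overlapped between tumours and each HG-PIN group, but single markers did not all do so. Of the 10, limma called 0 higher and 1 lower in tumours against T-3Mb-Erg HG-PIN, Cd14, a lipopolysaccharide co-receptor, which fell by 1.73 (adjusted p = 0.0409). Cd14 and the complement gene C1qc (-0.46, adjusted p = 0.685) were lower there without overlap, and Cd14 also against control HG-PIN (-0.75, adjusted p = 0.424). The part of either cell type in the Slc40a1 values was not tested.

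Among the 8 measured iron genes other than Hamp, limma called 0 in tumours against T-3Mb-Erg HG-PIN, where it called 0.283% of all genes tested (0.0661% higher, 0.216% lower). Slc40a1 was the 1 gene of the 8 with an unadjusted p under 0.05 and the 1 whose groups did not overlap; over all genes tested, 7.65% had such a p and 11.4% had groups that did not overlap (4.97% higher, 6.43% lower in tumours). In tumours against control HG-PIN it again called 0 of the 8, beside 0.18% of all genes (0.108% higher, 0.0721% lower), with Slc40a1 the 1 gene at an unadjusted p under 0.05 and the 1 without overlap, beside 9.32% and 13.7% of all genes (6.2% higher, 7.51% lower in tumours). The other 7 had intervals that spanned 0 in both comparisons, with adjusted p values from 0.896 to 0.999 against T-3Mb-Erg HG-PIN and from 0.704 to 0.994 against control HG-PIN. Between the HG-PIN groups 0% of all genes tested were called, with 4.1% at an unadjusted p under 0.05; groups did not overlap for 10.1% of all genes (5.25% lower in T-3Mb-Erg HG-PIN) and, of the 9 iron genes, for Hamp alone, the gene chosen for it.

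**Figure D2:**
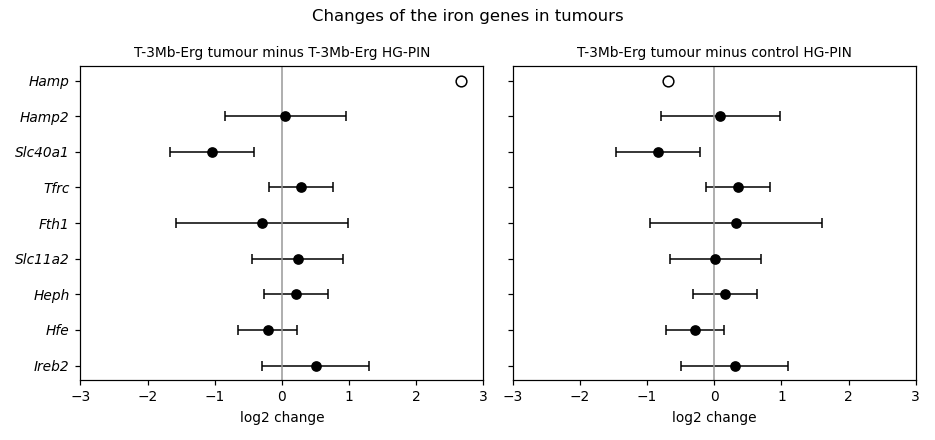
Log2 change of the 9 measured iron genes in T-3Mb-Erg tumours minus T-3Mb-Erg HG-PIN (left) and minus control HG-PIN (right), with 95% intervals from limma. Hamp is an open circle with no interval because its HG-PIN values chose it. The interval of Slc40a1 lies below 0 in both panels, from -1.67 to -0.42 on the left, and those of the other 7 genes span 0.

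The other export gene and the iron uptake genes passed the threshold in neither tumour comparison. Heph encodes hephaestin, a ferroxidase that works with ferroportin. It stood at 4.60, 4.01 and 3.89 in tumours, 3.85, 3.89 and 4.14 in T-3Mb-Erg HG-PIN, with 3.96, 3.98 and 4.08 in control HG-PIN, with 0 arrays above the receptor level. Tfrc, the transferrin receptor through which cells take up iron, stood at 4.25, 3.86 and 3.93 in tumours, 3.91, 3.76 and 3.52 in T-3Mb-Erg HG-PIN, with 3.99, 3.51 and 3.47 in control HG-PIN. It was higher in the tumour in 3 of 3 mice, by 0.35, 0.09 and 0.41. The mean change of 0.28 (95% interval from -0.19 to 0.76) did not pass, and no array exceeded the receptor level.

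Slc11a2, the divalent metal transporter DMT1, stood at 5.26, 4.29 and 5.31 in tumours, 4.79, 4.61 and 4.76 in T-3Mb-Erg HG-PIN, with 4.58, 5.32 and 4.91 in control HG-PIN. The groups overlapped, and the tumour change from T-3Mb-Erg HG-PIN was 0.23 (95% interval from -0.45 to 0.92). The interval stays within 1 log2 unit in both directions.

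Fth1, the heavy chain of the iron store ferritin, was the only iron gene above the receptor level on all 9 arrays. It stood at 9.85, 8.61 and 10.30 in tumours, 10.40, 10.29 and 8.95 in T-3Mb-Erg HG-PIN, with 9.73, 9.10 and 8.95 in control HG-PIN. The groups overlapped, and the sign of tumour minus HG-PIN differed between mice (-0.55, -1.68 and 1.35). The mean change was -0.29 with a 95% interval from -1.58 to 0.99, wide enough to hold a difference of more than 1 log2 unit. After Hamp, Fth1 had the largest difference between the HG-PIN groups, 0.62 higher in T-3Mb-Erg mice, with overlapping arrays.

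The iron sensors also passed in neither comparison. Hfe, a regulator of hepcidin that binds the transferrin receptor, stood at 3.70, 3.73 and 3.996 in tumours, 4.27, 3.99 and 3.81 in T-3Mb-Erg HG-PIN, with 4.07, 4.25 and 3.95 in control HG-PIN, with 0 arrays above the receptor level. Ireb2, which encodes the RNA-binding iron regulatory protein IRP2, stood at 4.81, 3.85 and 5.14 in tumours, 4.72, 3.73 and 3.83 in T-3Mb-Erg HG-PIN, with 4.28, 3.93 and 4.67 in control HG-PIN. Its tumour change of 0.50 (95% interval from -0.30 to 1.30) came mainly from mouse 3, at 1.31, beside 0.08 and 0.11 in the other mice.

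**Figure D3:**
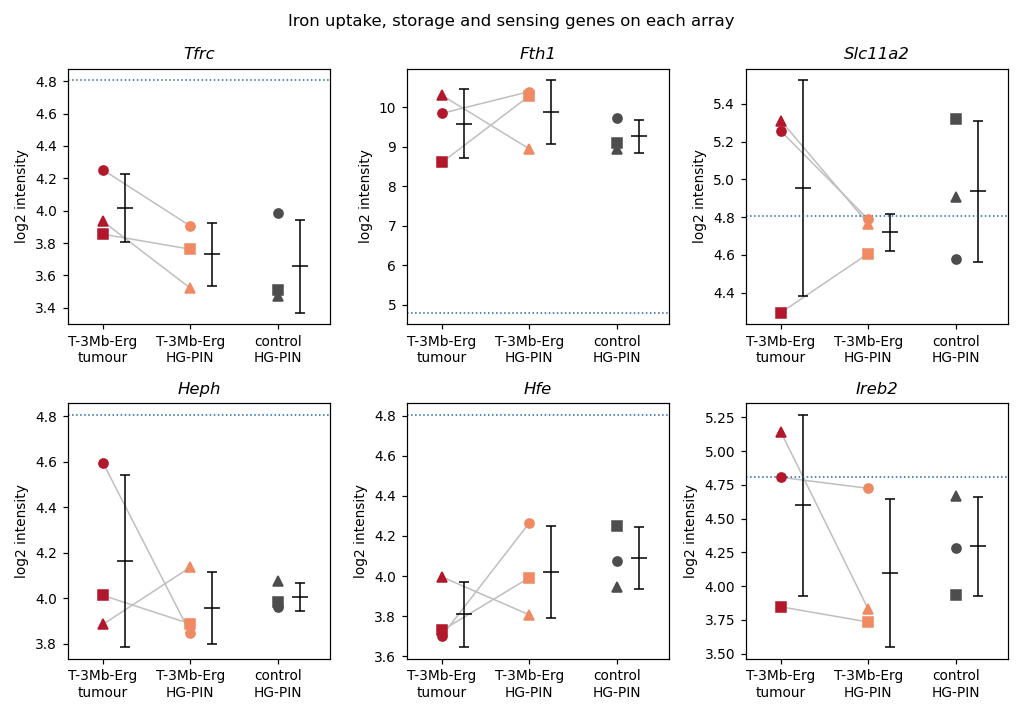
Log2 intensity of Tfrc, Fth1, Slc11a2, Heph, Hfe and Ireb2 on each array of T-3Mb-Erg tumours, T-3Mb-Erg HG-PIN and control HG-PIN, with symbols, lines and bars for replicate, mouse and mean ± SD (n = 3) and a dotted line at the receptor level of 4.81. The groups overlap for all 6 genes, and Fth1 alone lies above the line throughout, between 8.61 and 10.40.

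The genes that control Hamp transcription in liver were counted next, in tumours against HG-PIN of the same mice. Of 19 BMP-SMAD genes, limma called 0, with 1 at an unadjusted p under 0.05, beside 7.65% of all genes tested. The median change of the 19 was -0.02, beside -0.01 for all genes tested. The 2 with the smallest p were Tfr2, an iron-sensing transferrin receptor (-0.54, adjusted p = 0.526), and Acvr1, a BMP type I receptor (0.43, adjusted p = 0.705). Tfr2 stood at 3.85, 3.90 and 3.65 in tumours, against 4.23, 4.55 and 4.25 in T-3Mb-Erg HG-PIN, without overlap and below the receptor level throughout. Acvr1 stood at 4.49, 4.69 and 4.55, against 4.19, 4.23 and 4.01, also without overlap, in the other direction and below that level. Groups did not overlap for 10.5% of the 19, 1 higher and 1 lower in tumours, near the 11.4% of all genes tested.

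Of 9 IL-6-STAT3 genes 7 were tested, limma called 0, and the median change was 0.28. Cebpa was the 1 gene at an unadjusted p under 0.05, beside 7.65% of all genes tested. Cebpa, a transcription factor that activates Hamp in liver, changed by -0.83 (adjusted p = 0.543), and Jak1, the kinase that activates STAT3, by 0.65 (adjusted p = 0.852). Neither passed. Between the HG-PIN groups the median difference was 0.19 for the BMP-SMAD genes and 0.25 for the IL-6-STAT3 genes, beside -0.0036 for all genes tested, given without a test. The groups did not overlap for 42.9% of the 7 IL-6-STAT3 genes there, 2 higher and 1 lower in T-3Mb-Erg HG-PIN, beside 10.1% of all genes. The 3 genes, named after their values were seen, were Cebpa (0.98), Stat3, the transcription factor of the pathway (0.75), and Il1b, an inflammatory cytokine (-0.52). Cebpa stood at 4.26, 4.02 and 3.41 in T-3Mb-Erg HG-PIN, against 3.03, 2.59 and 3.11 in control HG-PIN, below the receptor level throughout.

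The list of iron uptake, storage and recycling genes held the called changes. Of 27 tested, limma called 0 higher and 1 lower in tumours against T-3Mb-Erg HG-PIN, with 5 at an unadjusted p under 0.05 and a median change of 0.10. Groups did not overlap for 29.6% of the 27, beside 11.4% of all genes tested. Such separation was not confined to the tumour comparison. Control and T-3Mb-Erg HG-PIN arrays were apart for 33.3% of the 27, beside 10.1% of all genes, given without a test. The genotype difference (T-3Mb-Erg minus control) was positive for 7 of these separated genes and negative for 2. The called gene was Ltf, lactoferrin, a secreted iron-binding protein of mucosal fluids. It stood at 3.59, 4.21 and 3.41 in tumours, against 6.74, 6.39 and 6.61 in T-3Mb-Erg HG-PIN, with 6.16, 5.78 and 5.60 in control HG-PIN.

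Ltf fell by 2.84 on the log2 scale in tumours against T-3Mb-Erg HG-PIN (SE 0.30, limma adjusted p = 0.00400), in 3 of 3 mice. Without tumour replicate 1 the change was -2.78 and did not pass (adjusted p = 0.0675). Against control HG-PIN it fell by 2.11 (SE 0.29, limma adjusted p = 0.0253), a call that 7 of 18 alternatives ended, with adjusted p values from 5.82e-04 to 0.153 over them. The tumour arrays lay below the receptor level, so the size is limited by background. Luminal epithelial markers moved with it. Of 9, 7 were called lower in tumours against T-3Mb-Erg HG-PIN, beside 0.216% of all genes. Against control HG-PIN only 2 of the 9 were called lower, beside 0.0721% of all genes. The summed intensity of these markers was 229 to 349 in tumours, 1220.5 to 1646 in T-3Mb-Erg HG-PIN, with 506 to 1295 in control HG-PIN. Their part in the fall of Ltf was not tested.

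Lcn2, lipocalin 2, binds the iron-carrying siderophores of bacteria; it was singled out after its values were seen. It stood at 3.89, 4.05 and 5.99 in tumours, against 7.75, 7.21 and 6.28 in T-3Mb-Erg HG-PIN, with 7.12, 7.06 and 6.86 in control HG-PIN. The tumours were the lower group without overlap from either. The changes were -2.44 and -2.37 (limma adjusted p = 0.113 and 0.118) and did not pass. Tumour replicate 3 differed from its own HG-PIN by -0.29, where the other mice differed by -3.86 and -3.16, and without it Lcn2 passed in both comparisons (-3.23 and -3.16, limma adjusted p = 0.00566 and 0.0424). The summed intensity of 7 neutrophil markers was 424 on tumour replicate 3, the highest of the 9 arrays, and 117 and 163 on tumour replicates 1 and 2. It ranged from 175 to 344 in T-3Mb-Erg HG-PIN and from 150.2 to 189 in control HG-PIN. The luminal markers given beside Ltf were lower in tumours with Lcn2 too, and the part of either cell type in the Lcn2 values was not tested.

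Lrp1, the receptor that clears haem bound to hemopexin among many other ligands, was the 1 gene of the list called higher in tumours against control HG-PIN. It stood at 7.10, 5.69 and 7.53 in tumours, against 4.55, 4.87 and 4.58 in T-3Mb-Erg HG-PIN, with 3.84, 4.19 and 4.22 in control HG-PIN. The change was 2.69 from control HG-PIN (SE 0.40, limma adjusted p = 0.0288) and 2.11 from T-3Mb-Erg HG-PIN, which did not pass (SE 0.41, limma adjusted p = 0.0590). It was higher in the tumour in 3 of 3 mice, by 2.56, 0.82 and 2.95. Of 18 alternatives 9 ended the call against control HG-PIN, with adjusted p values from 3.01e-04 to 0.168, and without tumour replicate 2 Lrp1 passed against T-3Mb-Erg HG-PIN as well (2.63, adjusted p = 0.00287).

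Fibroblast markers lay in the same direction as Lrp1. All 8 had positive changes in both tumour comparisons and none was called. Their summed intensity was 458 to 3326 in tumours, 233 to 632 in T-3Mb-Erg HG-PIN, with 166 to 209 in control HG-PIN. Tumour replicate 2, the tumour array lowest in Lrp1, was also the lowest of the tumours in this sum. That array had the narrowest range of all, with a 95th percentile of 6.15, against 6.49 and 6.65 in tumour replicates 1 and 3. The part of fibroblasts in the Lrp1 values was not tested.

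**Figure D4:**
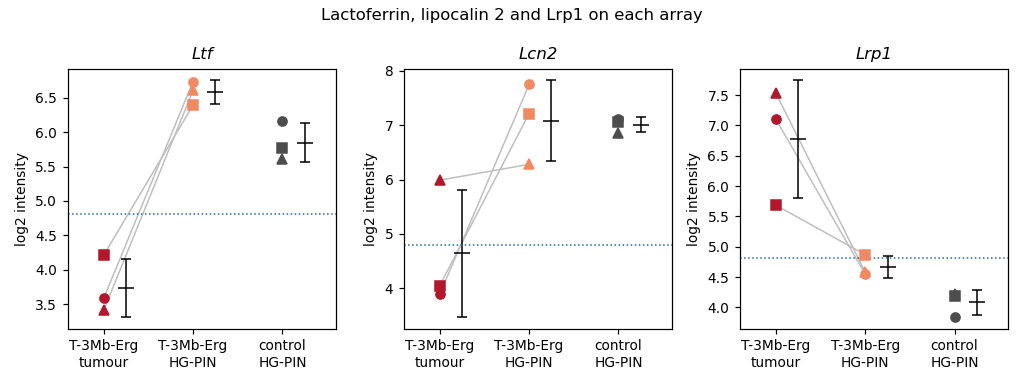
Log2 intensity of Ltf, Lcn2 and Lrp1 on each array of T-3Mb-Erg tumours, T-3Mb-Erg HG-PIN and control HG-PIN, with symbols, lines and bars for replicate, mouse and mean ± SD (n = 3) and a dotted line at the receptor level of 4.81. Tumour arrays of Ltf lie between 3.41 and 4.21 and those of Lrp1 between 5.69 and 7.53, apart from both HG-PIN groups.

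The lists of iron-using pathways showed no called gene. Of 6 tested heme synthesis genes limma called 0 in tumours against T-3Mb-Erg HG-PIN, with 0 at an unadjusted p under 0.05 and a median change of -0.10. Alas1, the first and rate-limiting enzyme outside red cells, had a change of 0.56 and Alad, the second enzyme, of -0.47 (adjusted p = 0.800 and 0.827). Of 11 iron-sulphur cluster assembly genes it also called 0, with 0 at an unadjusted p under 0.05 and a median of -0.04. Glrx5, a mitochondrial glutaredoxin, had a change of -0.40 and Hscb, a co-chaperone of the assembly, of 0.44 (adjusted p = 0.827 and 0.834).

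**Figure D5:**
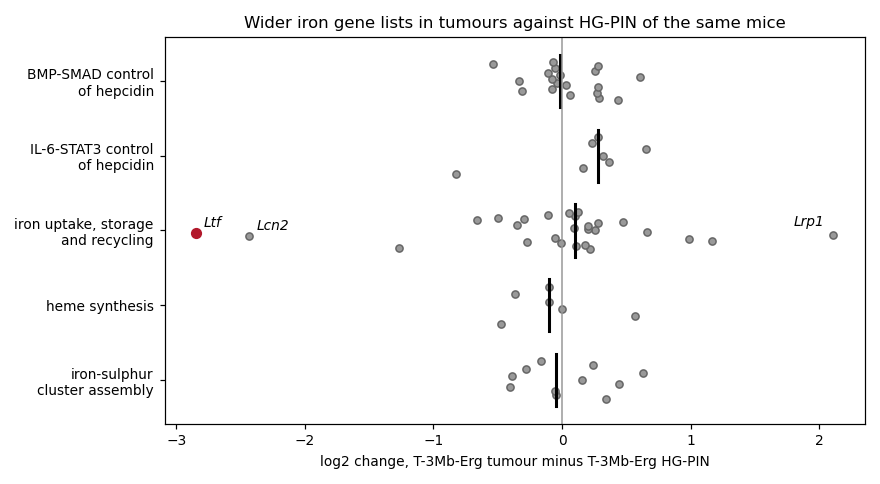
Log2 change of each tested gene of 5 wider iron gene lists in T-3Mb-Erg tumours minus T-3Mb-Erg HG-PIN. Each point is a gene, the vertical bar is the list's median and red marks an adjusted p under 0.05 in limma. Ltf at -2.84 is the 1 red point, and the medians lie between -0.10 and 0.28.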

How the data were processed

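The authors deposited a table of linear intensity for 41345 probe sets on 9 arrays. Per the labels' protocols, RNA of laser-captured fixed tissue was amplified with NuGEN Ovation chemistry. How the scans were background-corrected, summarised and normalised is not given in the sources used here. An allele carried by both genotypes is not reported here. Probe sets with 1 symbol in the platform annotation (23521 of 41345) were named through Entrez identifiers, values were log2-transformed without a pseudocount, and the lowest 25% of genes by mean signal (below 3.25) were removed. Group means over all 9 arrays were fitted in limma 3.58.1 (R 4.3.3) with arrays of 1 mouse treated as a random block (duplicateCorrelation, consensus -0.01) and with trended empirical Bayes variances, tested first on simulated data. The labels give the mice; deviations of the tumour and HG-PIN arrays of 1 mouse from their group means correlated at 0.17, 0.10 and -0.30. A gene is called at an adjusted p under 0.05 (Benjamini-Hochberg, over all 16635 genes). These p-values rest on a residual spread pooled over the 9 arrays, with 3 mice a group, and moderated across genes. At a consensus of -0.01, tumour and T-3Mb-Erg HG-PIN arrays were in effect compared without pairing. Members and lists were chosen with earlier results of these data known; Hamp was chosen for its HG-PIN difference. Named genes are the 9 measured members, called genes of 5 wider iron lists or else the 2 with the smallest p in tumours against T-3Mb-Erg HG-PIN, and the 5 genes most correlated with Hamp, without predicted-model, microRNA and snoRNA symbols. Lcn2, Stat3, Il1b and the cell markers given with a value of their own fall outside this rule and were picked with their values known. The alternatives concerned the log scale, filter, normalization, block, weights, array range and single arrays.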

Additional observations from a re-analysis of the deposited data

How the results depend on the processing

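Low signal and 3 arrays per group limit these results: most iron genes lie near the receptor level, and the median half-width of a 95% interval was 0.59 on the log2 scale. Of 758 gene values under alternatives, 708 kept their direction and side of the threshold or moved by less than the spread between replicates, 17 tested values of the tumour comparisons changed sign, 17 no longer passed and 14 newly passed. The untested differences between the HG-PIN groups also changed sign, within that spread, under at least 1 alternative for Hamp2 (-0.44 to 0.27), Slc40a1 (-0.06 to 0.43), Tfrc (-0.03 to 0.24), Heph (-0.18 to 0.0038), Hfe (-0.18 to 0.12) and Ireb2 (-0.53 to 0.07), so they have no settled direction. With log2(value + 16) Hamp differed by -1.99 between the HG-PIN groups, and leaving out single arrays gave -3.64 to -2.89; Heph stood at -0.18 there without T-3Mb-Erg HG-PIN replicate 3. In tumours against T-3Mb-Erg HG-PIN, Hamp2 changed sign when each group lost its narrowest-range array (-0.41), without tumour replicate 1 (-0.11) or 2 (-0.18) and without HG-PIN replicate 2 (-0.18) or 3 (-0.01), and Fth1 without tumour replicate 2 (0.16); single arrays left out gave -0.18 to 0.53 for Hamp2 and -0.86 to 0.16 for Fth1. In tumours against control HG-PIN, Slc11a2 changed sign with quantile normalization (-0.053), with the range term (-0.024), without control replicate 1 (-0.16) and without tumour replicate 1 (-0.14) or 3 (-0.15). There Hamp2 did so without the narrowest-range arrays (-0.27) and without tumour replicate 1 (-0.07) or 2 (-0.14), Heph without tumour replicate 1 (-0.048), and Fth1 (-0.17) and Ireb2 (-0.0068) without tumour replicate 3. Single arrays left out there gave -0.16 to 0.36 for Slc11a2, -0.14 to 0.41 for Hamp2, -0.048 to 0.32 for Heph, -0.17 to 0.77 for Fth1 and -0.0068 to 0.72 for Ireb2. These genes passed in no setting, and the cause was not tested.

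Of the 8 iron genes other than Hamp, 1 was called with array weights in each tumour comparison (Slc40a1) and 0 under the other settings, single arrays left out included. With each mouse as a fixed term (replicate block) 26 genes passed in tumours against T-3Mb-Erg HG-PIN, against 47, and Slc40a1 stood at -1.04 (limma adjusted p = 0.343); this block changed no call of an iron gene named here. Other counts of called genes in that comparison were 18 with log2(value + 16), 72 with quantile normalization, 405 with array weights, 194 with the 95th percentile of each array as a range term and 182 without the narrowest-range arrays; single arrays left out gave 0 to 110. Tumours against control HG-PIN gave 30 genes, and 7 with log2(value + 16), 7 on the 6 arrays, 65 with quantile normalization, 938 with array weights, 196 with the range term and 260 without the narrowest-range arrays; single arrays left out gave 0 to 261. T-3Mb-Erg HG-PIN against control HG-PIN gave 0 genes, and 9 with array weights, 4 on the 6 arrays, 7 with the range term and 4 without the narrowest-range arrays; single arrays left out gave 0 to 6. Without the narrowest-range arrays the mouse correlation could not be estimated and no block was used.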
